A study of Mus musculus with 5 samples.

Results

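The genes described here are the mouse genes whose symbol on the array is Zfp followed by digits alone, a naming series of zinc-finger proteins, leaving out Zfp42 and Zfp57. Each gene was represented by its brightest probe, and a gene was kept where at least 1 of the 5 arrays gave an intensity of 100 or more. The array carried 211 such probes for 209 symbols, out of 16087 symbols in all. Of the 209, 84 met the level and are called members below, and 125 stayed under it. The members just inside the level were Zfp35, with a highest value of 103.8, Zfp239 (103.8) and Zfp454 (105.5), and the genes just outside it were Zfp410 (98.1), Zfp37 (97.9) and Zfp82 (97.5). The members were thus chosen by their measured intensity on these same arrays, so their levels and counts are given as a description. In particular, 7 members reached 100 on sphere arrays only and 9 on ES-type arrays only, and a gene admitted through 1 side tends to be higher there.

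Most Zfp genes encode C2H2 zinc-finger proteins, in which pairs of cysteines and histidines hold a zinc ion and each finger reads a few bases of DNA. Many also carry a KRAB domain, which recruits Trim28 (also called KAP1) and with it the histone methyltransferase Setdb1 and heterochromatin proteins. In ES cells this machinery is known for silencing endogenous retroviruses and for keeping imprints. KRAB zinc-finger genes often lie side by side in clusters of close copies, so a probe for 1 of them may also bind the RNA of a neighbour, and which members share signal in this way was not tested. The name is historical: 66 of the 84 members keep their Zfp symbol in the current RefSeq table and 18 now have another. Some of the new symbols still begin with Zfp, as Zfp119a for Zfp119 and Zfp385b for Zfp533. The 18 include RING ubiquitin ligases (Zfp313 is Rnf114 and Zfp364 is Rnf115), an Arf GTPase-activating protein (Zfp289, Arfgap2), a splicing factor (Zfp265, Zranb2) and a pseudogene (Zfp353, Zfp353-ps).

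RNA came from E14tg2a-derived male mouse ES cells of strain 129 that express myr-Akt-Mer, a membrane-anchored Akt kinase fused to a hormone-binding domain, which 4-hydroxytamoxifen (4OHT, 1 µM) switches on. Akt-spheres, labelled as resembling primordial germ cells (PGC), were grown under 4OHT on OP9 stromal cells, which were then plated out for 30 minutes, from ES line 21 (1 array) and ES line 42 (1 array). ES-like cells reverted from line 21 spheres after transient 4OHT on mouse embryonic fibroblasts, line 21 ES cells with 4OHT and line 21 ES cells without 4OHT, both grown without feeders, gave 1 array each, and these 3 are called the ES-type arrays. All 5 carry the Akt transgene, each line is 1 line of cells, and the 2 sphere arrays differ in line as well as being replicates, which cannot be told apart. No array of line 42 ES cells was used here. In RNA of whole cultures, fewer cells of a type and less RNA per cell cannot be told apart, and p-values measure only the spread between these arrays.

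The deposited values shared a median of 50.0 on every array, and 20787 to 21479 of 22871 probes had a value. Across 10608 tested genes the correlation of log2 values between arrays ran from 0.882 to 0.978. Of 8 ES and naive-state markers, limma called 5 lower in spheres (7 at an unadjusted p under 0.05), among them Nr0b1. The 6 PGC markers had 0 calls and 4 with an unadjusted p under 0.05. For stroma and fibroblasts, 9 markers had a probe and 6 were tested, of which 2, Thy1 and Acta2, were called lower in spheres. Summed over all 9, the intensity was 369 and 266 in spheres of lines 21 and 42. The sums were 1147 in reverted cells, 1003 in ES cells with 4OHT and 1182 in ES cells without 4OHT. Most of these ES-type sums was Thy1 and Acta2. Thy1 read 24.8 and 16.1 in spheres, against 230, 331 and 464 on the ES-type arrays. Acta2 read 80.7 and 62.4 in spheres, against 606, 415 and 476. The matrix genes Postn (5.49 to 10.3) and Dcn (5.49 to 20.3) were dim on all arrays, and Col1a2 read 101 and 42.0 in spheres, against 102, 53.5 and 50.0 on the ES-type arrays. Of the blood markers 1 was tested and of the neural markers 2, with 0 called and 0 at an unadjusted p under 0.05 by limma. The 2 neural markers with a probe, Nes and Pax6, summed to 308 and 84.5 in spheres of lines 21 and 42, against 231 in reverted cells, 61.7 in ES cells with 4OHT and 85.8 in ES cells without 4OHT, most of it Nes. The part of other cell types in the values below was not tested further.

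All 84 members had a value on all 5 arrays, and 52 were at or above 100 on every one. Members at or above 100 numbered 72 on the line 21 sphere array, 63 on the line 42 sphere array, 72 in reverted cells, 65 in ES cells with 4OHT and 62 in ES cells without 4OHT. The 10 members with the highest mean of log2 values over the 5 arrays were Zfp706, Zfp265, Zfp207, Zfp198, Zfp330, Zfp277, Zfp313, Zfp259, Zfp639 and Zfp105, and since probes differ in brightness this is no order of transcript numbers. Several of them are not DNA-binding repressors by their known roles. Zfp706, which in mouse ES cells represses Klf4, read 2424 and 3666 in spheres, against 2989, 2647 and 1751 on the ES-type arrays. Zfp265 (Zranb2), a splicing factor, read 1324 and 1352 in spheres, against 1216, 988 and 897 on the ES-type arrays, the spheres being the 2 highest of the 5. Zfp207, a partner of the spindle checkpoint protein Bub3, read 1009 and 1156 in spheres, against 1232, 862 and 1033 on the ES-type arrays. Neither Zfp706 nor Zfp207 separated spheres from ES-type arrays, since their groups overlapped. Zfp198 (Zmym2), part of a corepressor complex, read 903 and 1165 in spheres, against 913, 893 and 1439 on the ES-type arrays, and the highest value was that of ES cells without 4OHT. Zfp330, a nucleolar protein, read 731 and 1011 in spheres, against 1038, 1104 and 1134 on the ES-type arrays. Zfp277 read 517 and 677 in spheres, against 875, 920.3 and 808 on the ES-type arrays. For Zfp330 and Zfp277 both sphere arrays lay below the 3 ES-type arrays, by less than 2-fold (log2 -0.34, SE 0.24, limma adjusted p = 0.519; for Zfp277 log2 -0.55, SE 0.23, limma adjusted p = 0.271).

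**Figure D1:**
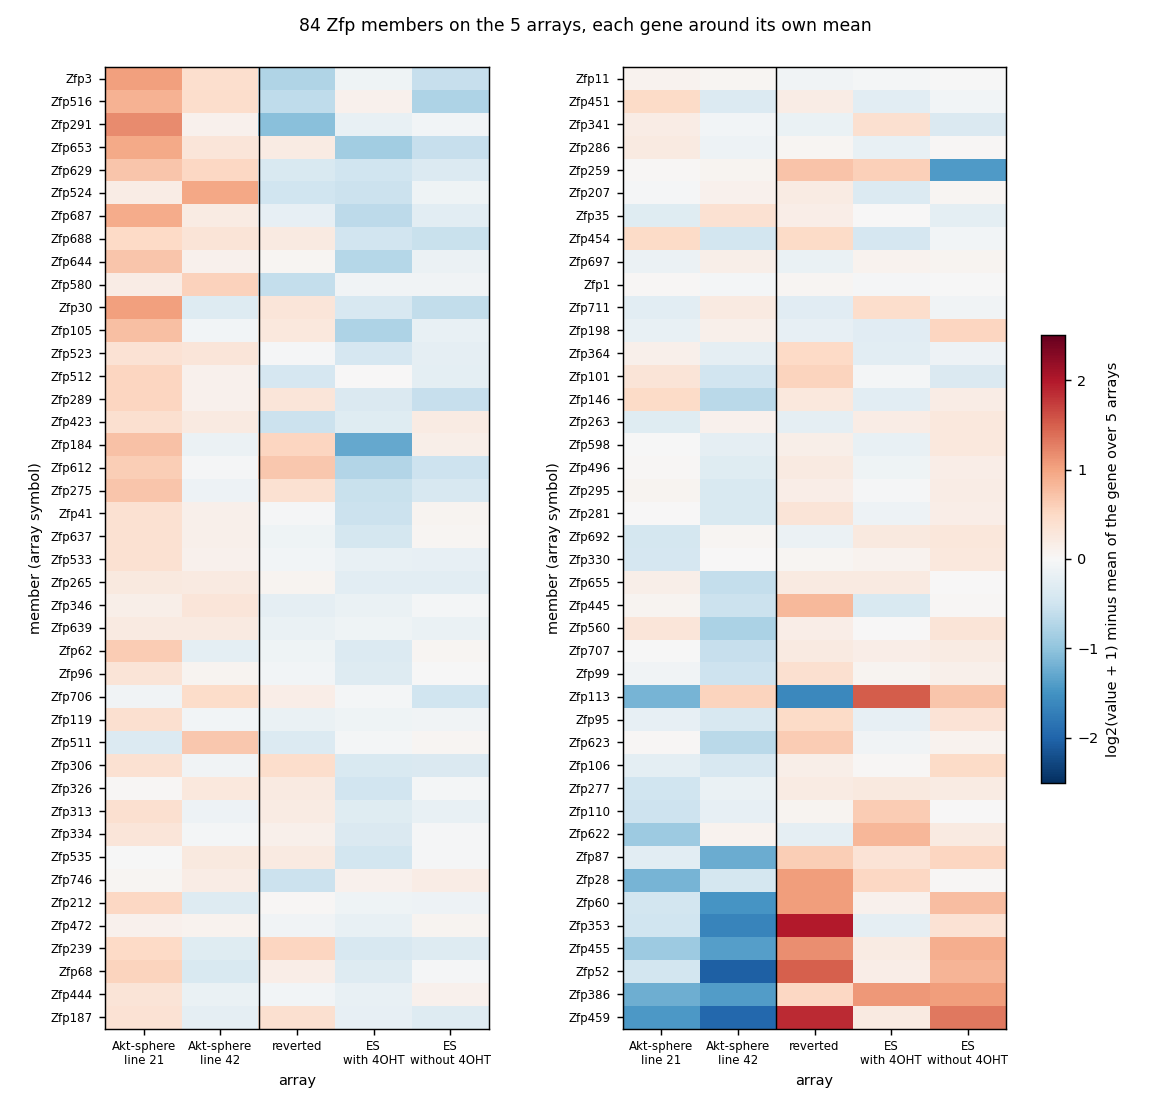
Heat map of the 84 members (rows, array symbols) on the 5 arrays (columns), coloured by log2(value + 1) minus the mean of that gene over the 5 arrays, in the order of the sphere difference. A line separates the 2 sphere arrays from the 3 ES-type arrays. The lowest rows, from Zfp87 to Zfp459, are blue in both sphere columns, and Zfp113 and Zfp259 show their extreme values within the ES-type arrays.

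Akt-spheres were then compared with the 3 ES-type arrays together, which asks which members separated the spheres of both lines from all 3 cultures of ES type. A single member, Zfp386, passed limma, and it fell in spheres. Zfp386, a zinc-finger gene for which no role is given here, read 71.2 and 65.2 in spheres, against 248 in reverted cells, 379 in ES cells with 4OHT and 336 in ES cells without 4OHT. The spheres were 4.58-fold lower on the centred log2(value + 1) scale (log2 -2.19, SE 0.27, limma adjusted p = 0.0257), and the 2 groups did not overlap. This gene reached 100 on the ES-type arrays only. limma called 0 members higher. Over the 10608 genes tested limma called 2.41%, of which 0.943% were higher and 1.47% lower, and among the 7328 tested genes that reached 100 on some array it called 2.78%. The members' share was 1.19%, and it rested on 1 gene. At an unadjusted p under 0.05 there were 6 members higher and 8 lower, against 18.9% of all genes tested. The call on Zfp386 was lost when the fit left out the line 21 sphere array (adjusted p = 0.0664), the line 42 sphere array (0.0815), ES cells with 4OHT (0.0957) or ES cells without 4OHT (0.136), all with limma, and held without the reverted cells (0.0224). Over all genes tested limma's 256 calls also turned on single arrays. There were 150 without line 21 spheres, 98 without line 42 spheres, 284 without reverted cells, 32 without ES cells with 4OHT and 0 without ES cells without 4OHT, where 1318 genes had an unadjusted p under 0.05.

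Other low members missed limma's threshold. Zfp459, of a KRAB zinc-finger cluster on chromosome 13, had the greatest difference of the 84. It read 18.6 and 13.1 in spheres, against 201 in reverted cells, 64.7 in ES cells with 4OHT and 128 in ES cells without 4OHT, so both sphere values lay at least 2-fold under the lowest ES-type value (log2 -2.84, SE 0.51, limma adjusted p = 0.0542). Zfp455 read 44.1 and 32.7 in spheres, against 196 in reverted cells, 102 in ES cells with 4OHT and 153 in ES cells without 4OHT (log2 -1.90, SE 0.36, limma adjusted p = 0.0598). These 2 and Zfp386 were the 3 members at least 2-fold apart without overlap, all lower in spheres and all admitted through ES-type arrays only, against 4.4% of all genes tested (1.76% higher and 2.64% lower) and 4.93% of those reaching 100. With an array left out the rule is easier to meet, and the count of 3 became 8 without either sphere array and 6 without ES cells with 4OHT. With 4 settings Zfp459 crossed limma's threshold (adjusted p = 0.0474 without centring, 0.0488 after quantile normalization, 0.0491 with a stricter filter on dim probes, and just under the threshold with an intensity trend).

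Another 5 members were at least 2-fold lower in spheres by the mean log2 difference, which made 8 in all (9.52%, against 8.54% of all genes tested and 9.07% of those reaching 100), a share near the background. Zfp52 read 48.1 and 15.99 in spheres, against 195, 79.7 and 118 on the ES-type arrays (log2 -2.09, SE 0.58, limma adjusted p = 0.137). Zfp353, an annotated pseudogene, read 388 and 181 in spheres, against 2253, 495 and 682 on the ES-type arrays (log2 -1.78, SE 0.71, limma adjusted p = 0.258). Reverted cells held by far its highest value, and the spheres its 2 lowest. Zfp60 read 269.7 and 138 in spheres, against 786, 424 and 606 on the ES-type arrays (log2 -1.60, SE 0.42, limma adjusted p = 0.125). Zfp28 read 30.9 and 54.1 in spheres, against 153, 108 and 70.1 on the ES-type arrays (log2 -1.34, SE 0.39, limma adjusted p = 0.150). Zfp87 read 174 and 90.3 in spheres, against 332, 279 and 292 on the ES-type arrays (log2 -1.25, SE 0.34, limma adjusted p = 0.133). In all 5 both sphere arrays lay below every ES-type array, but line 42 was much the lower of the 2 for Zfp52, Zfp353, Zfp60 and Zfp87, and line 21 for Zfp28. Zfp52 and Zfp28, like the 3 above, had reached 100 on ES-type arrays only.

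Of these 8 lower members, 6 had a window in the RefSeq promoter table. The windows of the 3 without overlap and of the 2 others with a motif match are shown so that their letters can be compared, and that of Zfp52, which held none of the motifs searched, is left out. Each window runs from 250 bases before to 50 bases after an annotated start, 5′ to 3′ on the strand of the gene, in build GRCm38.p6. Capitals mark matches, on either strand, to CTACANNTC (the middle of the site known for Zfp143, also called Staf), CCGGAAGT (the core known for ETS factors) or CACGTG (the E-box).
Zfp386, chr12:116047474-116047773, plus strand: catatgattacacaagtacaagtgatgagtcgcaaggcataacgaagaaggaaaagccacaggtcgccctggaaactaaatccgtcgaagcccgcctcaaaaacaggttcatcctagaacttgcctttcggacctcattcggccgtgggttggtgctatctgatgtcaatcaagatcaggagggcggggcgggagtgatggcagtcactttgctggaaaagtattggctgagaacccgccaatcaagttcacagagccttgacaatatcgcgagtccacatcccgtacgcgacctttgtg
Zfp459, chr13:67421369-67421668, minus strand: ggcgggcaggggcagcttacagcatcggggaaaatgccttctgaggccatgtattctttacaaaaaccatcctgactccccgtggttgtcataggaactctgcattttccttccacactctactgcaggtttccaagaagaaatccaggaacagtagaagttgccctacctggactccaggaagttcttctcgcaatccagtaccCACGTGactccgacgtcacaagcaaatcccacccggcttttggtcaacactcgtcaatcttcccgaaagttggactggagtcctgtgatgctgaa
Zfp455, chr13:67194256-67194555, plus strand: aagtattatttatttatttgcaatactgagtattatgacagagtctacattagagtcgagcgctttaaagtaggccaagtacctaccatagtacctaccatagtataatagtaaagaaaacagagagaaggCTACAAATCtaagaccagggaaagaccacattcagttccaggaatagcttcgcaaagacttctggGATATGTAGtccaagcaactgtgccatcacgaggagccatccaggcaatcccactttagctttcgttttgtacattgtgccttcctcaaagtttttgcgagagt
Zfp60, chr7:27731159-27731458, plus strand: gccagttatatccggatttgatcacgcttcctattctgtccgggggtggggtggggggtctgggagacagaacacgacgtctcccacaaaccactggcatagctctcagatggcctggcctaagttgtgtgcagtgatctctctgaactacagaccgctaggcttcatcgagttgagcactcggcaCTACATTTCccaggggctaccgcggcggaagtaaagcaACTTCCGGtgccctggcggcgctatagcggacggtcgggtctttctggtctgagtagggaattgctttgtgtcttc
Zfp28, chr7:6383068-6383367, plus strand: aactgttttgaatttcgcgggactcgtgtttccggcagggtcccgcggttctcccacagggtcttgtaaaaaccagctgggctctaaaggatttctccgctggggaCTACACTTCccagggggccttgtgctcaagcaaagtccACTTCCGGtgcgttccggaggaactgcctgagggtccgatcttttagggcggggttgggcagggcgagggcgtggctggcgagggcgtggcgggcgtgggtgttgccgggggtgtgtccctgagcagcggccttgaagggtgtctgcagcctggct
Zfp60 and Zfp28 each held CTACANNTC and, downstream of it, CCGGAAGT on the other strand, and Zfp455 held CTACANNTC once on either strand. Zfp459 held CACGTG, and the window of Zfp386 held none of the motifs searched.

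**Figure D2:**
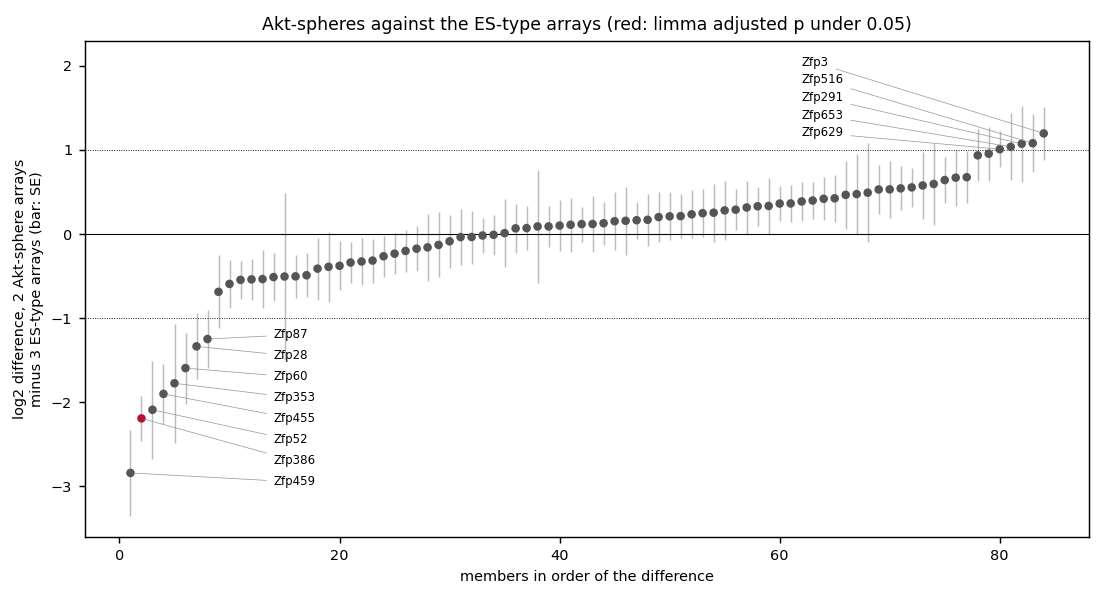
Members in order of the log2 difference (y axis, mean of the 2 sphere arrays minus mean of the 3 ES-type arrays, bars giving limma's SE), with dotted lines at 2-fold. The red point is Zfp386 (log2 -2.19), the call of limma, and the lower end reaches -2.84 at Zfp459 while the upper end stops at 1.20 at Zfp3.

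At the other end, 5 members were at least 2-fold higher in spheres by the mean (5.95%, against 6.54% of all genes tested and 6.89% of those reaching 100), a share near the background, and limma called 0 of them. Zfp3 read 111 and 75.9 in spheres, against 33.2 in reverted cells, 53.5 in ES cells with 4OHT and 35.04 in ES cells without 4OHT (log2 1.20, SE 0.31, limma adjusted p = 0.123). Zfp516, which in mouse fat cells activates the brown fat gene Ucp1, read 194 and 149 in spheres, against 70.2, 122 and 59.9 on the ES-type arrays (log2 1.08, SE 0.34, limma adjusted p = 0.173). Zfp291 (Scaper), named for its association with cyclin A in S phase, read 224 and 111 in spheres, against 48.8, 92.4 and 91.1 on the ES-type arrays (log2 1.07, SE 0.45, limma adjusted p = 0.275). All 3 had their highest value in line 21 spheres. Zfp653 read 201 and 132 in spheres, against 123, 59.8 and 66.8 on the ES-type arrays (log2 1.04, SE 0.40, limma adjusted p = 0.242). Zfp629 read 307 and 284 in spheres, against 152, 144 and 145 on the ES-type arrays and had the smallest SE of the 5 (log2 1.01, SE 0.22, limma adjusted p = 0.0770). Its 2 sphere values and its 3 ES-type values each lay close together. The next 3 in size were Zfp524, at 58.5 and 106 in spheres, against 37.6, 37.4 and 46.2 on the ES-type arrays (log2 0.96), Zfp687, at 381 and 240.3 in spheres, against 180.3, 136 and 161 on the ES-type arrays (log2 0.94), and Zfp688, at 341 and 313 in spheres, against 293, 185 and 158 on the ES-type arrays (log2 0.68). In all 8 both sphere arrays lay above every ES-type array, none of them by 2-fold throughout. Zfp291, Zfp3 and Zfp524 had reached 100 on sphere arrays only.

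Of these 5 higher members, 4 had a window and 3 a motif match. Zfp291 (Scaper) held CACGTG in 1 of its windows, as Zfp459 did on the lower side. The windows of Zfp3 and Zfp653 are shown because they hold CCGGAAGT, as those of Zfp60 and Zfp28 do (capitals mark CCGGAAGT on either strand and, in Zfp653, GCATGCGC on both strands, the core of the site known for Nrf1; build GRCm38.p6).
Zfp3, chr11:70764197-70764496, plus strand: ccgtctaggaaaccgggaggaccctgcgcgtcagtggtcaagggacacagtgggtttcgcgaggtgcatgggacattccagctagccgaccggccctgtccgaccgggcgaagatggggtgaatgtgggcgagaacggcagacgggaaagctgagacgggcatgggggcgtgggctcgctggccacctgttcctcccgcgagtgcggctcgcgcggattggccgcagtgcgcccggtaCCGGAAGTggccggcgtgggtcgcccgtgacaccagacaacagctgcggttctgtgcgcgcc
Zfp653, chr9:22071327-22071626, minus strand: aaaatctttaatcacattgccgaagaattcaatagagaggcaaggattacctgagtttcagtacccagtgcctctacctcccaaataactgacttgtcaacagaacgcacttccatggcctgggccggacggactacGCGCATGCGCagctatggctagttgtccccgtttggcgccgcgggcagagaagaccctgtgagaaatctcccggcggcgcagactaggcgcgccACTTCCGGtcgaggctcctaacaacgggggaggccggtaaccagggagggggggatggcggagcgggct
CCGGAAGT stood on the plus strand of the gene in Zfp3 and on the minus strand in Zfp653, and on the minus strand in the lower members Zfp60 and Zfp28.

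**Figure D3:**
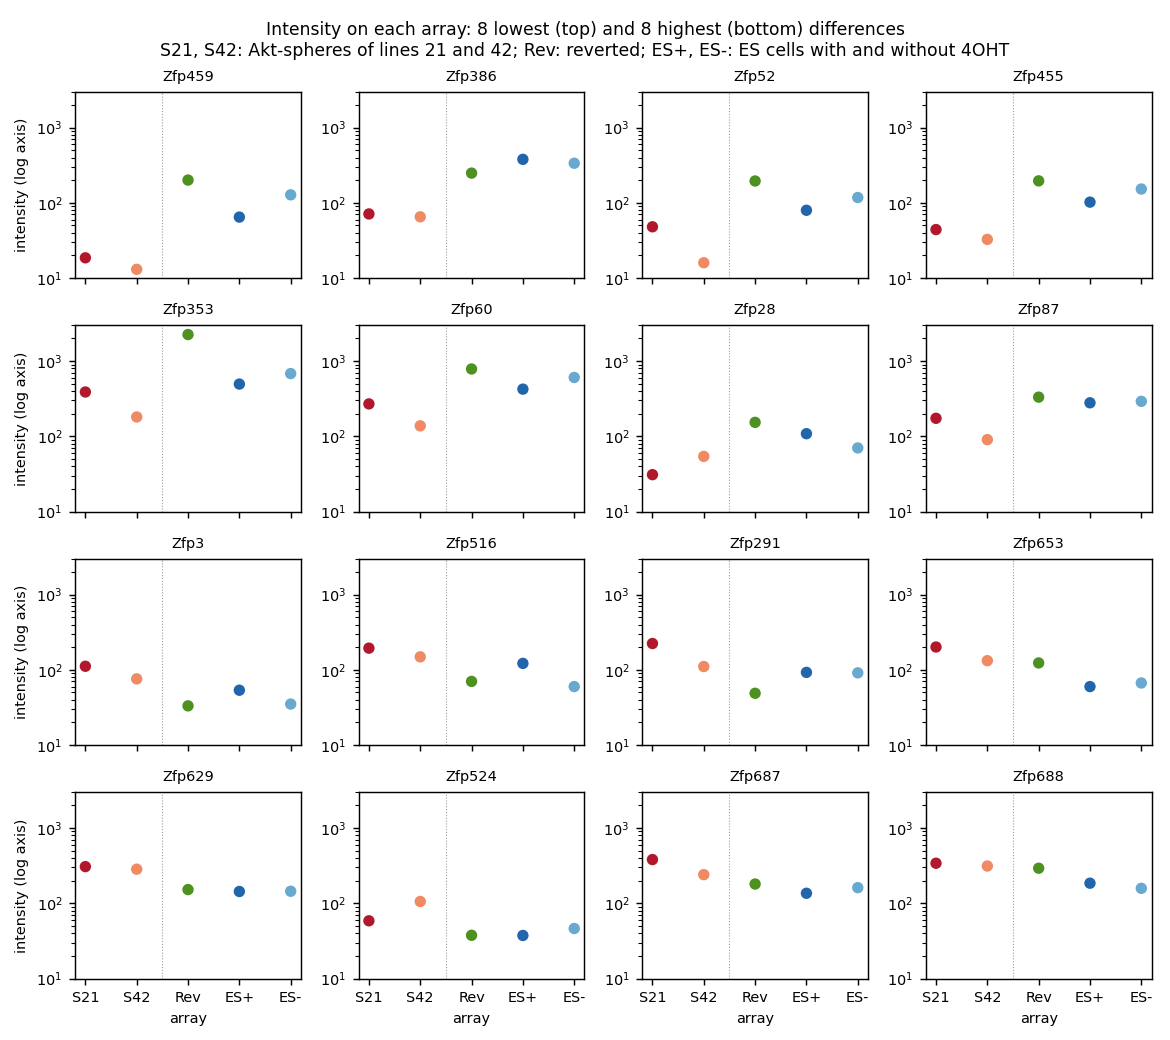
Deposited intensity (y axis, log scale) of 16 members on each array (x axis: spheres of lines 21 and 42, reverted cells, ES cells with and without 4OHT), the 8 with the lowest sphere difference in the upper rows and the 8 with the highest in the lower rows. Every panel has both sphere points on the same side of all 3 ES-type points, and the gap is widest for Zfp459 and Zfp386.

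Counting any lack of overlap, whatever its size, 23 members (27.4%) had both sphere arrays above all ES-type arrays, against 19.1% of all genes tested and 19.9% of genes reaching 100. Both lay below for 15 (17.9%), against 18.4% of either. The median log2 difference over members was 0.12, with a range from -2.84 to 1.20, against 0.01 over genes reaching 100. The 8 lowest ran from -2.84 to -1.25 and the 8 highest from 0.68 to 1.20. Of the 8 lowest, 5 had reached 100 on ES-type arrays only, and of the 8 highest, 3 on sphere arrays only, so the level of 100 bears on both ends.

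Some members lie close to each other in the genome. Taking members at most 10 places from the next in the RefSeq order of protein-coding genes, 25 members fell into 11 runs. In 9 of the 11 the sphere differences of the members had the same sign. How often neighbouring genes outside the family share a sign was not counted, so the 9 have no background and are a description. Most runs held 2 members, and some differences were small, as for Zfp212 and Zfp746 on chromosome 6 (0.17 and 0.20). The run with the largest differences was Zfp455, Zfp459 and Zfp87 on chromosome 13 (log2 -1.90, -2.84 and -1.25). On chromosome 5, Zfp99 (Zkscan14), Zfp95 (Zkscan5) and Zfp655 had -0.50, -0.51 and -0.38. On chromosome 7, Zfp688 and Zfp629 had 0.68 and 1.01, and Zfp524 and Zfp580 had 0.96 and 0.64. Zscan12 (Zfp96), Zkscan3 (Zfp306) and Zscan26 (Zfp187), on another stretch of chromosome 13, had 0.33, 0.25 and 0.12. The 2 runs of mixed sign were Zfp444 with Zfp28 (0.13 and -1.34) and Zfp445 with Zfp105 (-0.39 and 0.58).

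The chromosome 13 stretch around Zfp455, Zfp459 and Zfp87 was looked at whole, from Zfp712 to Zfp273, after the values of those 3 members had been seen. It holds 25 protein-coding genes, 12 of which had a probe and 8 of which were bright enough to be tested. limma called 0 of the 8, and 7, the 3 members among them, had a negative sphere difference. Over all genes tested 50.1% had a difference above 0. Counting all 12 with a probe, 7 had both sphere arrays below every ES-type array with a value. Of these 7, 3 are the members whose values led to the stretch, and 4 are among the other 9 genes. Over all genes tested both sphere arrays lay below for 18.4%, and the counts of this stretch are a description. Among the 4, Zfp595 was too dim to be tested, at 17.5 and 13.7 in spheres, against 18.3, 21.2 and 19.6 on the ES-type arrays. Rsl1, which in mouse liver represses male-specific genes, read 59.96 and 51.5 in spheres, against 104, 73.2 and 68.01 on the ES-type arrays (log2 -0.52, limma adjusted p = 0.368). Zfp457 read 29.3 and 22.03 in spheres, against 40.7, 40.4 and 44.4 on the ES-type arrays (log2 -0.69) and Zfp874b read 30.9 and 30.3 in spheres, against 35.8, 66.5 and 46.5 on the ES-type arrays (log2 -0.63). These genes were dim and their differences small beside those of Zfp459 and Zfp455. Zfp759, at 74.8 and 94.9 in spheres, against 69.4, 70.4 and 61.4 on the ES-type arrays (log2 0.33), was the exception on the higher side, and Zfp729a (log2 -0.03) hardly differed. As neighbours of this kind are close copies, the probes may share RNA, which was not tested.

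**Figure D4:**
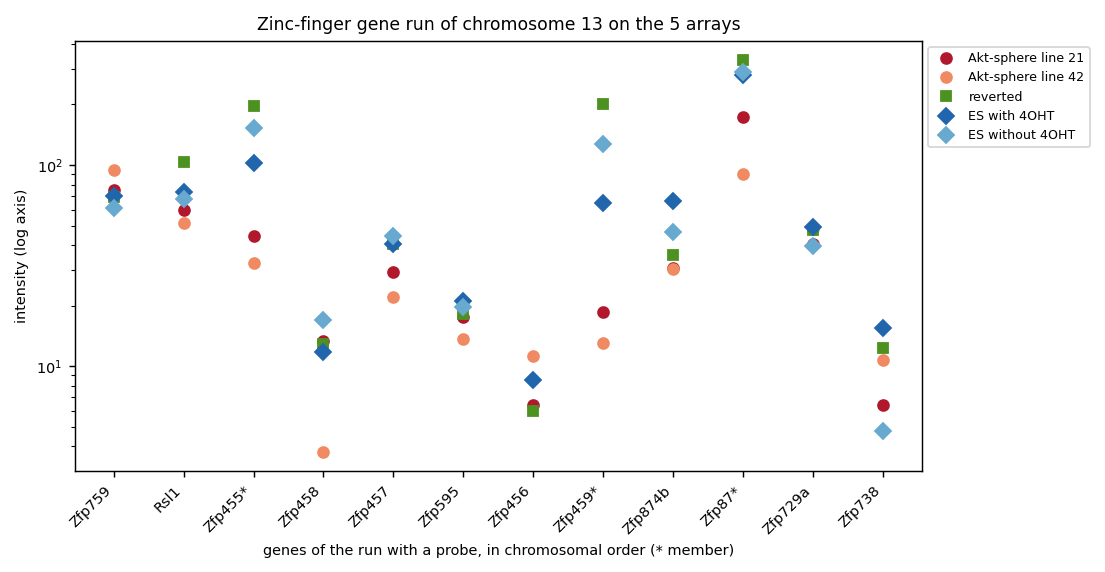
Deposited intensity (y axis, log scale) of the 12 genes with a probe in the chromosome 13 run (x axis, chromosomal order, asterisks for members) on the 5 arrays. The sphere points (circles) lie below the others at Zfp455, Zfp459 and Zfp87, and most of the other genes are below 100 on every array.

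Members were also grouped by lists of known roles. For pluripotency and self-renewal, 4 of 7 listed genes had a probe and were tested and limma called 0, with 0 at an unadjusted p under 0.05. Zfp281, which limits Nanog expression in mouse ES cells, read 655 and 518 in spheres, against 850.2, 637 and 710.2 on the ES-type arrays (log2 -0.32, SE 0.26, limma adjusted p = 0.582), and its groups overlapped. For silencing of retroelements and imprint control, 3 of 6 had a probe, with 0 called and 0 at an unadjusted p under 0.05. The member among them was Zfp445, which guards imprints together with Zfp57, at 66.1 and 44.8 in spheres, against 116, 51.3 and 62.4 on the ES-type arrays (log2 -0.39, SE 0.41, limma adjusted p = 0.678). Only reverted cells took it past 100.

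For mesenchyme and fat, 3 of 4 listed genes had a probe and 2, both members, were tested, with 0 called and 1 at an unadjusted p under 0.05, Zfp516. The other was Zfp423, a determinant of fat cell precursors, at 174 and 159 in spheres, against 93.4, 112 and 146 on the ES-type arrays (log2 0.53, SE 0.29, limma adjusted p = 0.392). Both read higher in spheres than on any ES-type array. For neural and developmental repressors, 4 of 6 had a probe, all under 100, and 3 were tested, with 0 called and 0 at an unadjusted p under 0.05.

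The list of RNA, ribosome and spindle proteins had 10 of 10 genes tested, of which 6 were members, with 0 called by limma, 1 at an unadjusted p under 0.05 and a median log2 difference of -0.15, against 0.00 over all genes tested. Zfp622, a factor of large ribosomal subunit assembly, read 73.2 and 153 in spheres, against 123, 261 and 156 on the ES-type arrays (log2 -0.69, SE 0.43, limma adjusted p = 0.458), with the lowest value in line 21 spheres and the highest in ES cells with 4OHT. Zfp106, an RNA-binding protein, read 323 and 299 in spheres, against 438, 412 and 515 on the ES-type arrays (log2 -0.54, SE 0.25, limma adjusted p = 0.307), both sphere arrays being the lowest. Zfp598, a ubiquitin ligase that acts on collided ribosomes, read 513 and 455 in spheres, against 595, 483 and 600.5 on the ES-type arrays, and its groups overlapped (log2 -0.20). Zfp346, which binds double-stranded RNA, read 157 and 181 in spheres, against 126, 136 and 132 on the ES-type arrays, both spheres above the rest (log2 0.36). Zfp326, which couples transcript elongation to splicing, read 300.4 and 366 in spheres, against 356, 225 and 273 on the ES-type arrays with overlap (log2 0.25). Their differences were thus small in both directions.

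Cofactors of KRAB zinc-finger proteins were listed apart, together with other chromatin genes. The list was chosen with earlier results of these data known, so its counts are a description. Of these genes 17 had a probe and 15 were tested. limma called 0, with 4 at an unadjusted p under 0.05 and a median log2 difference of -0.39. Trim28, the common corepressor, read 948 and 932 in spheres, against 2204 in reverted cells, 1786 in ES cells with 4OHT and 2063 in ES cells without 4OHT (log2 -1.09, SE 0.23, limma adjusted p = 0.0765). The 2 sphere values were alike and lay below all 3 others. Setdb1, the methyltransferase it recruits, read 441 and 334 in spheres, against 377, 337 and 474 on the ES-type arrays (log2 -0.03, SE 0.29, limma adjusted p = 0.977). Smarcad1, a chromatin remodeller that binds Trim28, read 234 and 475 in spheres, against 540.2, 1215 and 818 on the ES-type arrays (log2 -1.28, SE 0.45, limma adjusted p = 0.206), and Morc3, a silencing ATPase, read 88.04 and 139 in spheres, against 197, 279 and 286 on the ES-type arrays (log2 -1.17, SE 0.31, limma adjusted p = 0.127). Setdb1 overlapped between the groups, whereas Morc3 and Smarcad1 did not. Of the 15 tested, 8 had both sphere arrays below every ES-type array, against 18.4% of all genes tested, and 1 had both above, against 19.1%. That 1 was Cbx3, a heterochromatin protein, at 1459 and 976 in spheres, against 936, 641 and 809 on the ES-type arrays (log2 0.61, SE 0.31, limma adjusted p = 0.364). Dnmt1, the maintenance DNA methyltransferase, read 1137 and 893 in spheres, against 963, 828 and 533 on the ES-type arrays (log2 0.43) with overlap.

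Line 21 spheres were set against line 21 ES cells with 4OHT, the pair that shares line and drug. With 1 array each there is no replicate check and no test, and log2 differences between arrays are those of centred values. Of the 84 members, 11 stood higher in spheres by 2-fold or more and 7 lower by as much, 18 in all, against 26.5% of all genes tested (12.7% higher and 13.8% lower). The members' shares were 13.1% and 8.33%. Zfp184 had the largest difference upward, at 125 in spheres against 32.1 in ES cells (log2 2.01). Zfp653 (log2 1.82), Zfp687 (1.57) and Zfp105 (1.52), the last at 1161 against 430.0, came next. The largest difference downward was that of Zfp113, at 229 in spheres against 1569.7 in ES cells (log2 -2.69), before Zfp386 (-2.31), Zfp622 (-1.73) and Zfp28 (-1.69). The ES array with 4OHT held the highest value of Zfp113 and the lowest of Zfp184 among all 5. The median over members was 0.34, against 0.00 over genes reaching 100, and 56 of the 84 (66.7%) were above 0, against 50.3%. Without centring the median was 0.26, against -0.08, and after quantile normalization 0.33, against 0.01. Nes differed in the same pair by log2 2.70, and its part in the members' values was not tested. Pax6, the other neural marker with a probe, was too dim on both arrays to enter.

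ES cells with 4OHT were set against ES cells without 4OHT, again with 1 array each. As all arrays carry the transgene, effects of the activated kinase and of the drug itself cannot be told apart. Here 3 members were at least 2-fold apart, 1 higher and 2 lower, against 4.95% of all genes tested (2.55% higher and 2.39% lower). Zfp259 (Zpr1), a zinc-finger protein that binds the inactive epidermal growth factor receptor and moves to the nucleus, read 1149 with 4OHT and 258 without, 4.04-fold higher after the centring of the arrays (log2 2.01). The other arrays read 734 and 782 in spheres and 1224 in reverted cells, so the ES array without 4OHT was the one apart. Its promoter window held CCGGAAGT, in capitals (build GRCm38.p6).
Zfp259 (Zpr1), chr9:46272814-46273113, plus strand: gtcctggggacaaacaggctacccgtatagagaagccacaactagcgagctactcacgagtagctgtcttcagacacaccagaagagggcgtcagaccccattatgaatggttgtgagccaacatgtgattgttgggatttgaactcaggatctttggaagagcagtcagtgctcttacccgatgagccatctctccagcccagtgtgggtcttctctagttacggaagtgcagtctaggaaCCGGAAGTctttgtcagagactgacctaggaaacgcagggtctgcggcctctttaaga
The 2 lower members were Zfp184, at 32.1 with 4OHT against 79.7 without (log2 -1.42), and Zfp459, at 64.7 against 128 (log2 -1.11). A limma fit that took the spread of the 2 sphere arrays for these single arrays, with 1 residual degree of freedom, called 0 members and 0 genes, with 1 member and 126 genes at an unadjusted p under 0.05. Its smallest adjusted p over all genes was 1, so it tells nothing of single members. The median over members was -0.16, against -0.04 over genes reaching 100, and 25 of 84 (29.8%) were above 0, against 45.6%. This rests on the centring of the arrays: without it all genes shifted by 0.14, the median over members was -0.02 against 0.09, and 41 were above 0, so the members' median minus that of genes reaching 100 was -0.11 under both (-0.10 after quantile normalization). Without centring or after quantile normalization the split was 2 higher and 1 lower.

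The 2 sphere arrays were compared with each other, line 42 over line 21. Zfp459 was too dim on both to enter, and of the other 83 members 2 stood higher in line 42 by 2-fold or more and 7 lower, against 15.7% of all genes tested (7.9% higher and 7.8% lower). After quantile normalization or without centring the split was 3 and 6. Zfp113 read 786 in line 42 against 229 in line 21 (log2 1.72), and Zfp511 240.2 against 115 (log2 1.01). On the lower side Zfp52 read 15.99 against 48.1 (log2 -1.58), Zfp30 44.2 against 110.3 (-1.35), Zfp146 51.2 against 111 (-1.15) and Zfp353 181 against 388 (-1.15). Zfp146 consists of zinc fingers alone, with no KRAB domain. The median over members was -0.34, against 0.04 over genes reaching 100, and 23 of 83 (27.7%) were above 0, against 52.6%. It stayed below 0 without centring (-0.29, against 0.09) and after quantile normalization (-0.32, against 0.02). Nes differed between these 2 arrays by log2 -1.85, and its part was not tested. Pax6, the other neural marker with a probe, was too dim on both to enter.

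Reverted cells were compared with the line 21 spheres from which they came. Of the 84 members, 7 stood higher in reverted cells by 2-fold or more and 5 lower, against 17% of all genes tested (9.4% higher and 7.59% lower). The higher ones were led by members that had been low in the sphere comparison above, which holds both arrays of this pair. Zfp459 read 201 in reverted cells against 18.6 in spheres, 9.94-fold higher after centring (log2 3.31). Zfp353 read 2253 against 388 (log2 2.48), Zfp28 153 against 30.9 (2.22) and Zfp455 196 against 44.1 (2.07). Zfp386 read 248 against 71.2 (log2 1.74). On the lower side Zfp291 (Scaper) read 48.8 against 224 (log2 -2.22), before Zfp3 (-1.77), Zfp516 (-1.51) and Zfp687 (-1.13). Line 21 spheres and reverted cells both enter the sphere comparison above, on opposite sides, so the 2 sets of values are not independent. A member low in spheres there tends to be higher in reverted cells here. The median over members was -0.03, against 0.01 over genes reaching 100.

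Reverted cells were also set against ES cells without 4OHT, the starting culture. Of the 84 members, 4 stood higher in reverted cells by 2-fold or more and 1 lower, against 11.5% of all genes tested (5.2% higher and 6.34% lower). Zfp259 (Zpr1) read 1224 in reverted cells and 258 in ES cells without 4OHT (log2 2.14), the same low array as in the 4OHT comparison, which both comparisons share. Zfp353 read 2253 against 682 (log2 1.62), Zfp612 107 against 43.5 (1.18) and Zfp28 153 against 70.1 (1.02). Zfp113 was the lower one, at 174 in reverted cells against 806 in ES cells without 4OHT (log2 -2.31). Its value in reverted cells was near that of line 21 spheres, 229, while line 42 spheres read 786 and ES cells with 4OHT 1569.7. The same limma fit called 0 members and 0 genes, with 1 member and 301 genes at an unadjusted p under 0.05 and a smallest adjusted p of 0.999. Of the 8 members lowest in spheres, Zfp353 and Zfp28 were thus more than 2-fold from ES cells without 4OHT. Zfp386 (log2 -0.53), Zfp455 (0.26), Zfp459 (0.55), Zfp52 (0.63), Zfp60 (0.27) and Zfp87 (0.09) were within 2-fold, as were most of all genes tested.

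**Figure D5:**
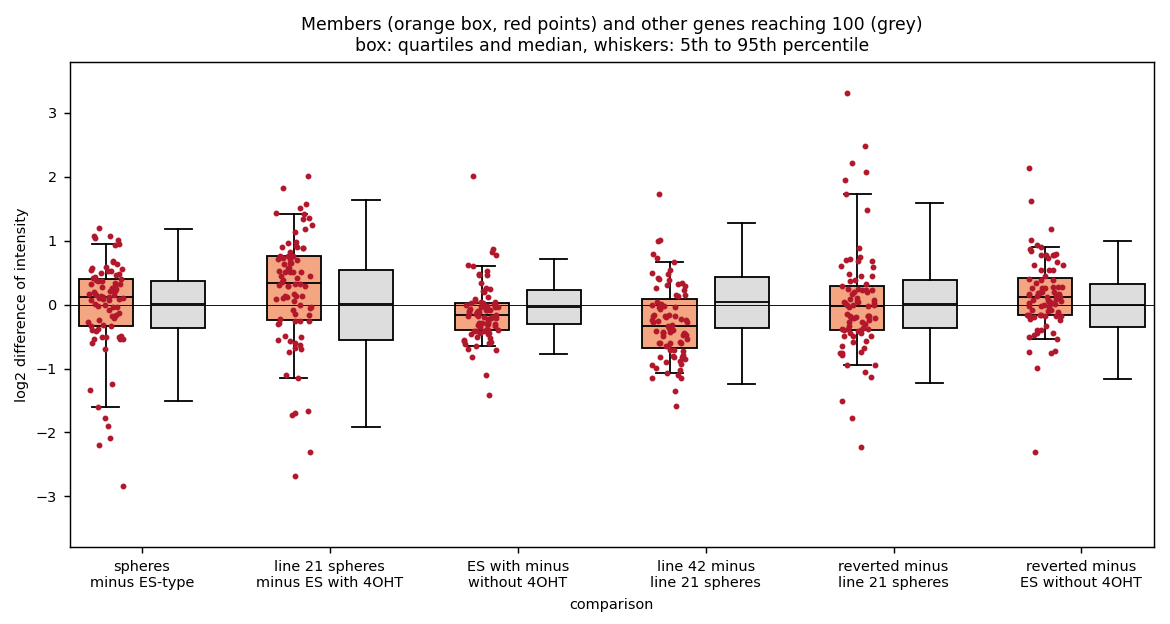
Log2 differences (y axis) of the members (red points, orange boxes) and of the other genes reaching 100 (grey boxes) in the 6 comparisons (x axis), with boxes at the quartiles and median and whiskers from the 5th to the 95th percentile. The members' box lies above that of the other genes for line 21 spheres minus ES cells with 4OHT (median 0.34) and below it for line 42 minus line 21 spheres (median -0.34).

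Taking each member's deposited values on the 5 arrays, the highest fell on the line 21 sphere array for 30 members (35.7%, against 20.6% of genes reaching 100), on the line 42 sphere array for 15 (17.9%, against 26.5%) and in reverted cells for 25 (29.8%, against 20.9%). ES cells with 4OHT held it for 10 (11.9%, against 22.7%) and ES cells without 4OHT for 4 (4.76%, against 9.2%). The lowest value fell on line 21 spheres for 11 members (13.1%, against 26.6% of genes reaching 100), on line 42 spheres for 26 (31.0%, against 18.7%) and in reverted cells for 8 (9.52%, against 15.6%). It fell in ES cells with 4OHT for 21 (25%, against 18.3%) and in ES cells without 4OHT for 18 (21.4%, against 20.8%). The highest values of members stood mostly on the line 21 sphere and reverted arrays. The neural marker Nes had its 2 highest values on the same arrays, at 284 in line 21 spheres, 81.3 in line 42 spheres, 223 in reverted cells, 45.6 in ES cells with 4OHT and 49.8 in ES cells without 4OHT. Pax6, the other neural marker with a probe, was highest in ES cells without 4OHT, at 36.0. It read 24.0 and 3.21 in spheres of lines 21 and 42, 8.37 in reverted cells and 16.2 in ES cells with 4OHT. The part of either marker in the counts was not tested. Each column is 1 array, so a difference between arrays of any origin enters these counts.

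RefSeq promoter windows of build GRCm38.p6 were found for 69 of the 84 members (88 windows, since some genes have several starts). CTACANNTC, searched on both strands, was in a window of 10 of the 69 (14.5%), against 4.91% of all 27025 genes in the table and 7.40% of the 5932 other genes that reached 100. CCGGAAGT was found for 11 (15.9%), against 4.31% and 9.997%, and GCATGCGC for 5 (7.25%), against 3.05% and 6.83%. CACGTG was found for 5 (7.25%), against 8.09% and 12.7%, TGACGTCA, the cAMP response element, for 2 (2.90%), against 2.03% and 4.10%, and TATAAA, the TATA box, for 2 (2.90%), against 15.7% and 9.12%. No motif of these 6 contains another, and GCATGCGC can overlap its own match on the other strand. The motifs were chosen after promoters of members had been read, and a match is a description of letters. Among the 6 genes at least 2-fold lower in spheres that have a window, 3 held CTACANNTC (Zfp455, Zfp60 and Zfp28), as did 0 of the 4 higher by as much and 7 of the other 59. Windows of members had a median of 17 CpG, against 21 for other genes reaching 100 and 7 for all windows.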

How the data were processed

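Total RNA of 5 cultures was amplified to antisense RNA, dye-coupled and hybridised to 1-colour Toray arrays, per the labels' protocols. The authors deposited 1 linear intensity per probe and array. How these were scanned, background-corrected and normalized is not given in the sources used here, nor why 1392 to 2084 probes per array have no value. Such cells were not filled in.

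Symbols came from the platform's annotation (16264 of 22871 probes had 1), and all 84 members were matched to the RefSeq gene table of GRCm38.p6, which gave current names and gene order. A pseudocount of 1 was added before log2, and the median of the probes listed on all arrays was subtracted from each array. On this scale the fold of a dim probe comes out too small. Tests took genes with a value on all arrays compared and, on 1 or more of these, a value at or above the 40th percentile of that array. The 2 sphere arrays were compared with the 3 ES-type arrays with lmFit and eBayes of limma 3.58.1 (R 4.3.3), p-values being adjusted by Benjamini-Hochberg over 10608 genes at a threshold of 0.05, after a test on simulated data. In that test limma recovered 2 of 66 genes changed by log2 1, 26 of 67 changed by log2 2 and 45 of 67 changed by log2 3. A count of 0 called therefore does not show a lack of change. Between single arrays, genes at least 2-fold apart were counted, with no test, and for 2 such pairs a limma fit with the spread of the sphere arrays was tried as an alternative. The number of arrays limits the precision.

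The members and gene lists were chosen with earlier results of these data known. The members named are the 10 with the highest mean log2 value, those that limma called, the 8 with the largest sphere difference on each side, up to 4 on each side of a pair of arrays among those at least 2-fold apart, those with a listed role, and those at the edge of the level. Members and genes described as neighbours in the genome were chosen after values were seen. Finger and KRAB domain counts per protein were planned and not made, since no protein table was used here. Alternatives covered scaling, pseudocount, filters, the level, the probe per gene, the symbols and each array left out.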

Additional observations from a re-analysis of the deposited data

How the results depend on the processing

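The number of members that limma called between spheres and ES-type arrays was 1, and it was 2, with Zfp459 added to Zfp386, after quantile normalization, without centring, with a 60th percentile filter and with an intensity trend. It ranged from 0 to 1 when an array was left out. The number at least 2-fold apart without overlap was 3. With current RefSeq symbols in place of array symbols (chosen after seeing the data) it was 5, and it ranged from 3 to 8 when an array was left out. For line 21 spheres against ES cells with 4OHT the count of 18 was 11 with a level of 200 or with a mean level of 100 (chosen after seeing the data). For ES cells with 4OHT against ES cells without 4OHT the count of 3 was 1 with the mean level. For line 42 against line 21 spheres the count of 9 was 5 with a pseudocount of 16. For reverted cells against line 21 spheres the count of 12 was 7 with a level of 200. For reverted cells against ES cells without 4OHT the count of 5 was 3 with a pseudocount of 16, with a level of 200 and with the mean level. A limma fit of the 2 pairs that hold ES cells without 4OHT called 0 members each, with 1 residual degree of freedom and a smallest adjusted p of 1 and 0.999 over all genes, so it says nothing about the 2-fold counts. By construction a higher level or a mean level admits fewer members, and a larger pseudocount shrinks folds, most of all those of dim probes. Leaving an array out makes the no-overlap rule easier to meet, also by construction. The cause of the other shifts was not tested. Of the counts under alternatives, 61 stayed within 1.5 times the count reported and 22 did not, and no called member reversed. No paired analysis was possible because the labels number no replicates and each condition of line 21 has 1 array. Depth is not defined for arrays: dim probes, such as those of Zfp459 in spheres (18.6 and 13.1), limit the size of the folds.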

Other observations

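The array's symbols are old, and taking the current RefSeq symbols in their place gives a set of 84 genes, 66 of which are members above. The following 2 were chosen after their values were seen. Zfp677, listed on the array as A830058L05Rik, read 247 and 115 in Akt-spheres of lines 21 and 42, against 35.5 in reverted cells, 13.1 in ES cells with 4OHT and 18.1 in ES cells without 4OHT (log2 2.99, limma adjusted p = 0.0513). Both sphere arrays lay at least 2-fold above every ES-type array, and the difference missed the threshold. Zfp933, listed as 2810408P10Rik, read 152 and 124 in spheres, against 408 in reverted cells, 881 in ES cells with 4OHT and 967 in ES cells without 4OHT (log2 -2.34, limma adjusted p = 0.0594). Its spheres lay at least 2-fold below every ES-type array.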
